A study of Arabidopsis thaliana with 54 samples.

Results

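Small RNA at the end of the night was compared between whole Arabidopsis thaliana seedlings of the accession Columbia 0 kept in long days and in equinox days. The 6 libraries were chosen by their labels, 3 labelled long day and 3 labelled equinox day at Zeitgeber time (ZT, hours after lights on) 24, out of 54 libraries in 18 groups of 3. After 48 h of stratification the seedlings grew for 10 days in 12 h of light and 12 h of dark, were moved on day 11 and were harvested on day 13, with shoots and roots together. Long day gave 16 h of light, so its seedlings had been dark for 8 h at ZT24, and equinox day gave 12 h of light, so its seedlings had been dark for 12 h. Equinox-day seedlings stayed in the photoperiod in which they had been raised, so that a longer day and a change of day length cannot be told apart here. Replicates are lettered A, B and C, and the labels do not say whether they came from separate cultures. The p-values therefore measure a spread between libraries that may be technical. In the main tests of single features this spread was taken over all 18 groups, and not from the 6 libraries alone. In whole seedlings, fewer cells of a type and less RNA per cell cannot be told apart.

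MicroRNAs are short RNAs cut from hairpin transcripts by a Dicer-like enzyme and loaded into an Argonaute protein, where in plants they guide the cleavage or the translational repression of closely matching messenger RNAs. Each hairpin gives a duplex with a 5p and a 3p arm, of which usually one is kept as the guide. Plant microRNA families act largely on transcription factors of development and on genes of nutrient and hormone signalling, and miR156 and miR172 are known for their part in the timing of juvenile and adult growth and of flowering, which in Arabidopsis long days promote.

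The mature sequences below belong to the microRNAs that the comparison turned on: the 3 with the smallest p (miR169f-3p, miR393a-3p and miR319c), those with no overlap between the groups, and their closest relatives. Sequences and positions were read by name from the RefSeq annotation of assembly TAIR10.1. They run 5′ to 3′, and capitals mark the seed, bases 2 to 8.
miR169f-3p: gCAAGUUGaccuuggcucugc
miR395b/c/f: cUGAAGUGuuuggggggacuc
miR395a/d/e: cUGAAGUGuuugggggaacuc
miR393a-3p: aUCAUGCUaucucuuuggauu
miR319c: uUGGACUGaagggagcuccuu
miR319a/b: uUGGACUGaagggagcucccu
miR161.1: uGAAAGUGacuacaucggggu
miR472-5p: aUGGUCGAaguaggcaaaauc
Names with several letters are features of the count table that join genes with 1 mature sequence. The miR319 features share the seed UGGACUG and differ at 1 base of 21, written U20C with the base of miR319c first and positions counted from the 5′ end. The miR395 features share the seed UGAAGUG and differ by G17A, the base of miR395b/c/f first. No source used here states how reads were assigned between such near-identical sequences, so the levels within each pair are uncertain. Mature miR169f-3p lies at chr3:4805713-4805733 on the minus strand, in MIR169f (AT3G14385), and miR393a-3p at chr2:16652205-16652225 on the plus strand, in MIR393a (AT2G39885). Mature miR319c lies at chr2:17029870-17029890 on the plus strand, in MIR319c (AT2G40805), and miR161.1 at chr1:17825731-17825751 on the plus strand, in MIR161 (AT1G48267). No other annotated gene overlaps these. The miR472-5p sequence, at chr1:4182266-4182286 on the minus strand in MIR472 (AT1G12294), lies in an exon of the protein-coding gene AT1G12290 on the same strand, so reads of either transcript would look alike. The miR395b/c/f feature joins 3 loci on chromosome 1.

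The libraries labelled long day held 15844335 counts in A, 17884672 in B and 15068012 in C, and those labelled equinox day held 15698655, 21136525 and 15113650. The table has 1 entry named genome, with 81.8% to 89.6% of the counts, which was left out of totals and tests. The rest came to 2082583 to 2858113 counts a library, and 3 counts corresponded to 1.26 to 1.58 CPM (counts scaled to a common library total). MicroRNAs took 9.59%, 11.9% and 9.89% of the counts outside the genome entry in long day A, B and C, and 14.3%, 10.3% and 10.3% in equinox day A, B and C. The means were 10.4% ± 1.24 and 11.7% ± 2.33 (SD, n = 3 each), a difference within the spread of the libraries (exact two-sided permutation test, p = 0.5, where 0.1 is the smallest p the design allows). The genome entry held 86.0% ± 0.229 and 85.0% ± 4.10 (n = 3 each; same exact permutation test, p = 0.7). Of the 286 microRNA features, 149 were abundant enough to test, and the other 137 had at most 9 counts in any of the 6 libraries.

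Of the 6 libraries, 2 stood with the other labelled group on features that separated long day from equinox day at the other times. Across the other 5 times, 110 of the 8869 tested features separated every one of the 15 long-day libraries from every one of the 15 equinox-day libraries, 61 of them higher in long day and 49 lower. None was a microRNA, and all carried a numbered trex name, a term that no source used here explains. At ZT24 the library labelled long day C was on the long-day side for 109 of the 110 features. The libraries labelled long day A and long day B were each on the equinox-day side for 106 of 110, as far over as equinox day A (104), B (107) and C (101). For trex763666, the other long-day libraries held 23.2 to 121 CPM and the other equinox-day libraries at most 3.398. Its level at ZT24 was 1.26 CPM in long day A, 0.877 in B and 114 in C, against 1.46, 1.79 and 3.68 in equinox day A, B and C. The feature trex25818 ran the other way, with at most 2.05 CPM in the other long-day libraries, at least 7.48 in the other equinox-day ones, and 27.4, 32.4 and 2.63 CPM in long day A, B and C at ZT24. When the same choice of features was repeated with 1 of the other times left out, all 15 long-day libraries of the times left out fell on the long-day side for 83.4% to 99.2% of features, and all 15 equinox-day libraries for 0% to 35.7%. Over all 8869 tested features, long day A was most like the mean profile of equinox day at ZT16 (Pearson r = 0.940) and long day B that of equinox day at ZT20 (r = 0.947), whereas long day C was most like long day at ZT20 (r = 0.953). These likenesses are descriptions over features of single libraries. The 3 short-day libraries of ZT24 were on the long-day side for 95 to 105 of the 110 features and 14 of the 15 short-day libraries of other times for 29 to 45, with replicate A of ZT4 apart from them at 95. These positions take the labels of all libraries as given. What sets the split was not tested, and it cannot be told apart from photoperiod at the other times. The comparison below keeps the groups as labelled. Counts of calls, list medians and the log2 fold changes of microRNAs described one by one are also given with long day C as the only long-day library of ZT24. The spread of that lone library was taken from the other groups, an alternative chosen after these values were seen. Its adjusted p-values and counts of calls therefore do not measure the spread between long-day libraries at ZT24. Long day C was kept alone for its place on the 110 trex features, so calls of trex features with it alone are partly set by that choice. How many of the called features are among the 110 was not counted.

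**Figure D1:**
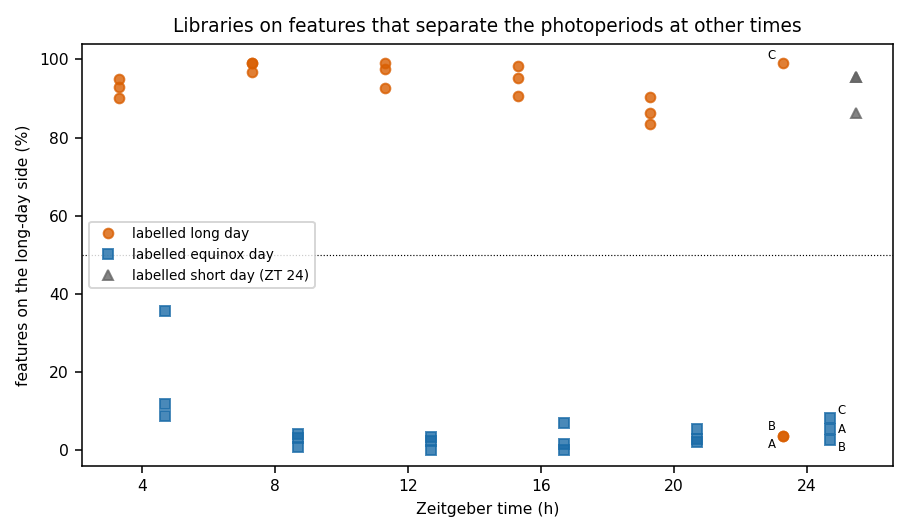
Each point is 1 library, placed by the share (vertical axis, percent) of features separating long-day from equinox-day libraries on which it fell on the long-day side. The features were chosen from long-day and equinox-day libraries of times other than ZT24 and other than the library's own time (horizontal axis, Zeitgeber time in hours). Triangles are the short-day libraries of ZT24. Long day A and B at ZT24 sit at 3.64%, among the equinox-day libraries, and long day C at 99.1%.

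No difference in a microRNA was detected between the groups labelled long day and equinox day at ZT24 (edgeR's quasi-likelihood test, Benjamini-Hochberg adjustment over 8869 features, threshold 0.05). None of the 149 microRNAs passed, where 0 of all 8869 features did (0%), and the smallest adjusted p of a microRNA was 0.542. At an unadjusted p under 0.05 there were 3 microRNAs, beside 596 of all features (6.72%). Of these 1 microRNA was higher in long day, beside 3.68% of all features, and 2 were lower, beside 3.04%. DESeq2 also called 0 microRNAs and 0 features. At an unadjusted p under 0.05 it had 20 of the 149 microRNAs beside 697 of the 8869 features. That is a larger share of the microRNAs than of all features, where edgeR had a smaller one. In DESeq2 120 of the 149 microRNAs had a negative log2 fold change, long day minus equinox day, with a median of -0.38. With long day C as the only long-day library no microRNA passed either, while 41 of the 8869 features did, all with a trex name. In that fit 89 of the 149 microRNAs had a negative log2 fold change and 60 a positive one. The value was -5.99 for miR826a and -2.20 for miR852, with means of only 2.49 and 3.48 CPM over the 6 libraries. It was -1.50 for miR845a (mean 1591 CPM) and 1.34 for miR169f-3p (mean 74.2 CPM). With all 3 long-day libraries the values of miR826a, miR852 and miR845a were -0.89, -0.62 and -0.81. With all libraries but microRNAs fitted alone, without the trex features, 1 microRNA did pass in edgeR, miR169f-3p (adjusted p = 0.000370). The data bound the differences only in part. The 95% interval of the log2 fold change lay within 1 either way for 22 of the 149 microRNAs, 12 of them among the 40 with a mean of 100 CPM or more. The median standard error was 0.46 on the log2 scale, and 0.36 for those 40.

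Fitted differences of the microRNAs ran from a log2 fold change of -1.10 to 1.55, long day minus equinox day, with a median of -0.23, against 0.04 over all features. The value was negative for 104 of the 149 microRNAs (69.8%) and for 48.0% of all features. This lean turned on single libraries. Equinox day A was the highest of the 6 libraries for 104 microRNAs (69.8%) and for 14.4% of all features. Equinox day B was the lowest for 73 microRNAs (49.0%) and for 22.7% of all features. Without equinox day A the median over the 148 of these microRNAs that were still tested was 0.28 and 33 were negative. Without equinox day B the median was -0.50 and 133 of 149 were negative. The lean also turned with the scaling: the microRNA median was 0.12 with no TMM factors, where that of all features was 0.33, and 0.11 over 145 microRNAs when they were scaled among themselves. It was -0.25 with long day C alone, with 89 negative. In TMM-scaled CPM, groups that did not overlap were found for 5 microRNAs. All long-day libraries were above all equinox-day ones for 2 microRNAs, 1.34% of those tested, beside 7.52% of all features, and below them for 3 microRNAs, 2.01%, beside 3.12%.

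**Figure D2:**
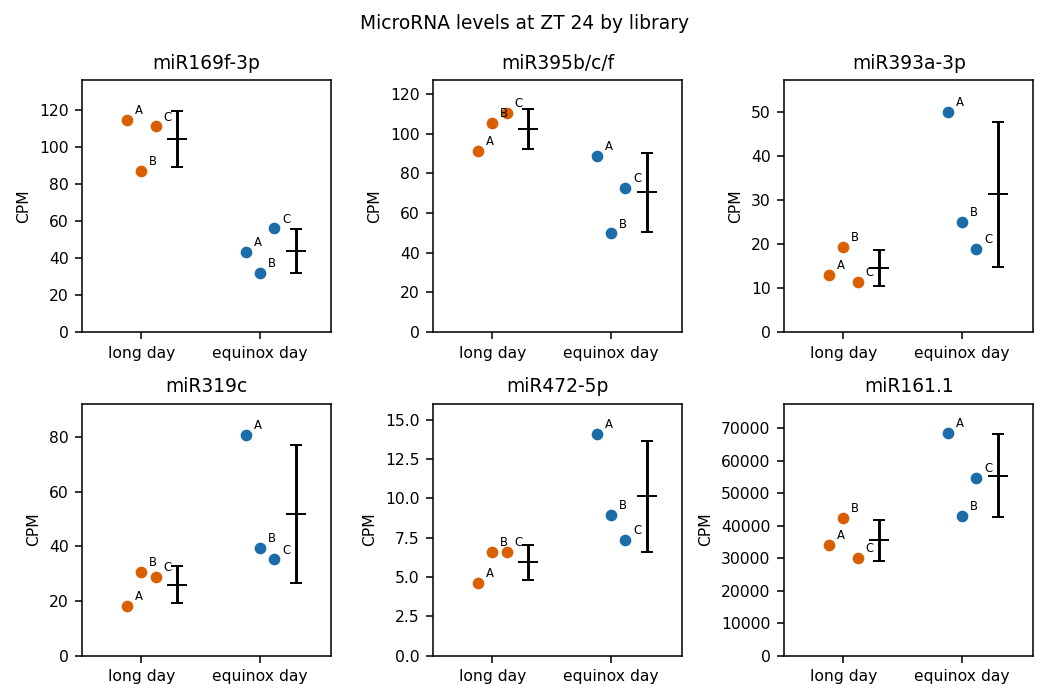
Levels of 6 microRNAs in CPM (vertical axis, linear, from 0) in each library at ZT24, lettered by replicate, with the mean and SD (bars, n = 3) of each labelled group. For miR169f-3p and miR395b/c/f all 3 long-day points lie above the equinox-day points, for miR319c, miR472-5p and miR161.1 they lie below, and for miR393a-3p the points overlap.

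The microRNA with the smallest p was miR169f-3p. The miR169 family targets the mRNAs of NF-YA subunits, which are part of a trimeric CCAAT-binding transcription factor, with sequences from its 5p arms, whereas miR169f-3p is the opposite arm of its hairpin. It stood at 115, 87.2 and 111 CPM in long day A, B and C and at 43.3, 32.3 and 56.2 in equinox day A, B and C. All long-day libraries were higher than all equinox-day libraries, and A and B did not stand apart from C. The means were 104.5 ± 15.05 and 43.9 ± 12.0 CPM (SD, n = 3 each). The log2 fold change was 1.25 ± 0.39 (SE; 95% interval 0.47 to 2.03), 2.38-fold, with an edgeR adjusted p of 0.542. Taking long day C alone, the log2 fold change was 1.34 and the adjusted p 0.337. Its direction was the same under each alternative setting tried, from 1.06 to 1.59 on the log2 scale, and it passed the threshold only when microRNAs were fitted alone (log2 fold change 1.55, adjusted p = 0.000370). The other 7 features of the miR169 family, 5p arms among them, had at most 2 counts in any of the 6 libraries.

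Of the 12 long-day and equinox-day means over the day, that of miR169f-3p was lowest in equinox day at ZT24. The equinox-day means were 86.9 CPM at ZT4, 134 at ZT8, 160 at ZT12, 98.7 at ZT16, 69.5 at ZT20 and 43.9 at ZT24. Long-day means were 94.0, 77.6, 118, 165.4, 168.2 and 104.5 CPM at the same times. The difference between photoperiods at ZT24 exceeded the mean of the differences at the other 5 times by 1.07 ± 0.42 on the log2 scale (adjusted p = 0.194). Matched for 8 h of dark, long day at ZT24 was set against equinox day at ZT20, where the libraries held 97.9, 43.9 and 66.8 CPM and overlapped the long-day libraries. That log2 fold change was 0.59 ± 0.38 (adjusted p = 0.994). Short day at ZT24, after 16 h of dark, held 78.8, 49.4 and 25.2 CPM.

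**Figure D3:**
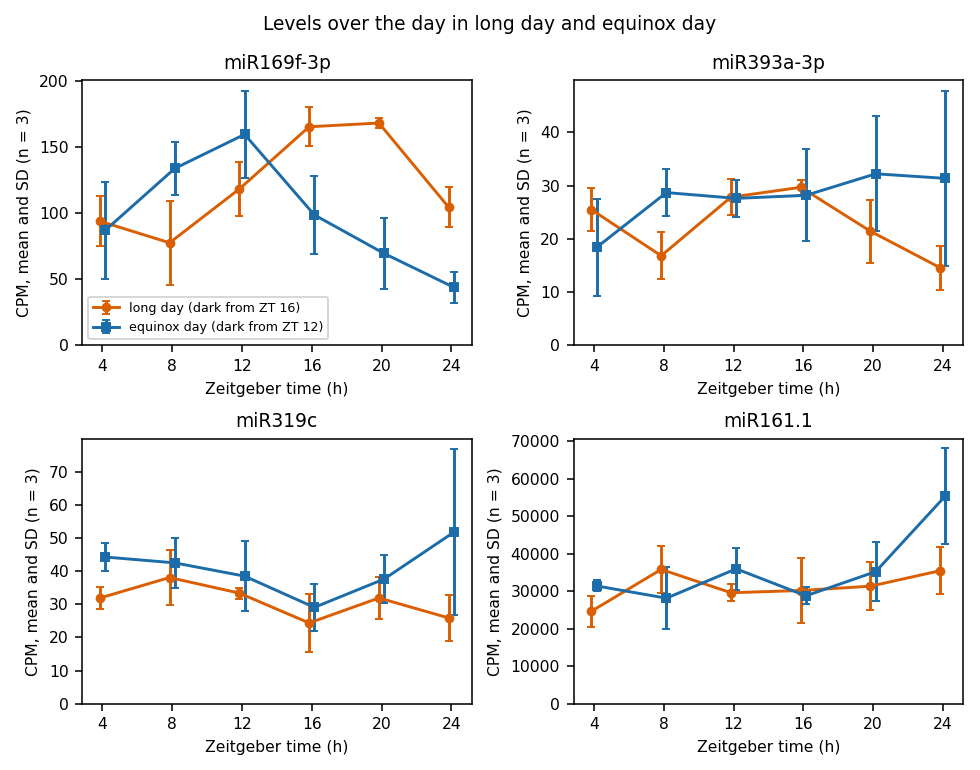
Mean levels (CPM, vertical axis from 0) of 4 microRNAs against Zeitgeber time (hours) in the groups labelled long day and equinox day, with the SD of 3 libraries. For miR169f-3p the long-day mean is the lower one at ZT8 and ZT12 and the higher one from ZT16 on, with 104.5 against 43.9 CPM at ZT24.

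Next by p came miR393a-3p, the opposite arm to the miR393 guide of auxin-receptor mRNAs. Its level was 13.0, 19.3 and 11.4 CPM in long day A, B and C and 50.1, 25.1 and 18.9 in equinox day A, B and C. The groups overlapped narrowly, and equinox day A was the highest. Means were 14.6 ± 4.16 and 31.4 ± 16.5 CPM (n = 3 each), and the log2 fold change was -1.10 ± 0.39 (interval -1.89 to -0.31; edgeR adjusted p = 0.637). It was -0.52 without equinox day A and -1.46 with long day C alone (adjusted p = 0.382). Against equinox day at ZT20 it was -1.14 ± 0.39 (adjusted p = 0.497), and the difference at ZT24 departed from that at other times by -0.94 (adjusted p = 0.264).

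The third was miR319c, which targets TCP transcription factor mRNAs that act in leaf growth. It held 18.1, 30.7 and 28.9 CPM in long day A, B and C and 80.7, 39.4 and 35.2 in equinox day A, B and C. The groups did not overlap in TMM-scaled CPM, and equinox day A was again far above the rest. Without scaling factors they overlapped: long day B held 70 of 2490195 counts outside the genome entry and equinox day C 67 of 2475343. Means were 25.9 ± 6.82 and 51.8 ± 25.1 CPM (n = 3 each), and the log2 fold change was -0.998 ± 0.38 (interval -1.77 to -0.23; adjusted p = 0.645). It was -0.46 without equinox day A and -0.84 with long day C alone (adjusted p = 0.597). Its near-identical relative miR319a/b, with 694, 1171 and 538 CPM against 1669, 831 and 938, overlapped between groups and had a log2 fold change of -0.52 ± 0.35. That value was -0.0599 without equinox day A and -1.09 with long day C alone (adjusted p = 0.439).

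The most abundant microRNA was miR161.1, a trigger of secondary siRNAs from pentatricopeptide repeat genes. Its level was 33967, 42288 and 30121 CPM in long day A, B and C and 68561, 42981 and 54659 CPM in equinox day A, B and C. The groups did not overlap, by a narrow margin between long day B and equinox day B. Its log2 fold change was -0.64 ± 0.34 (interval -1.32 to 0.03; adjusted p = 0.714) and -0.88 with long day C alone (adjusted p = 0.538). Without scaling factors the groups did not overlap either. The highest long-day library, B, held 96465 of 2490195 counts outside the genome entry, and the lowest equinox-day library, C, held 104075 of 2475343. No scaling factor touches the share of all microRNA counts, of which miR161.1 is itself a large part. That share was 37.3%, 32.7% and 33.4% in long day and 34.4%, 42.4% and 40.8% in equinox day, and it overlapped. Against equinox day at ZT20, with the same 8 h of dark and a mean of 35209 ± 7842 CPM (n = 3), its log2 fold change was 0.01.

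The other microRNAs with no overlap in TMM-scaled CPM were miR395b/c/f and miR472-5p. The miR395 family targets ATP sulfurylase and sulfate transporter mRNAs and is known to rise in sulfate-starved plants. The miR395b/c/f feature stood at 91.3, 105 and 110 CPM in long day A, B and C and at 88.9, 49.7 and 72.5 in equinox day A, B and C. Long day A was only just above equinox day A, and the log2 fold change was 0.54 ± 0.42 (adjusted p = 0.770), or 0.65 with long day C alone. The median of both tested miR395 features was 0.35, and 0.57 with long day C alone. Its relative miR395a/d/e overlapped between groups (0.16 ± 0.45, and 0.50 with long day C alone), and both features were near equality against equinox day at ZT20, at -0.01 and -0.15. The miR472-5p arm, whose partner miR472-3p targets mRNAs of nucleotide-binding immune receptors, had few reads, with 4.63, 6.58 and 6.57 CPM in long day and 14.1, 8.96 and 7.35 in equinox day. Without scaling factors the groups overlapped, with 15 counts in long day C and 14 in equinox day C. The log2 fold change of miR472-5p was -0.77 ± 0.47 (edgeR adjusted p = 0.739), and -0.62 with long day C alone.

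**Figure D4:**
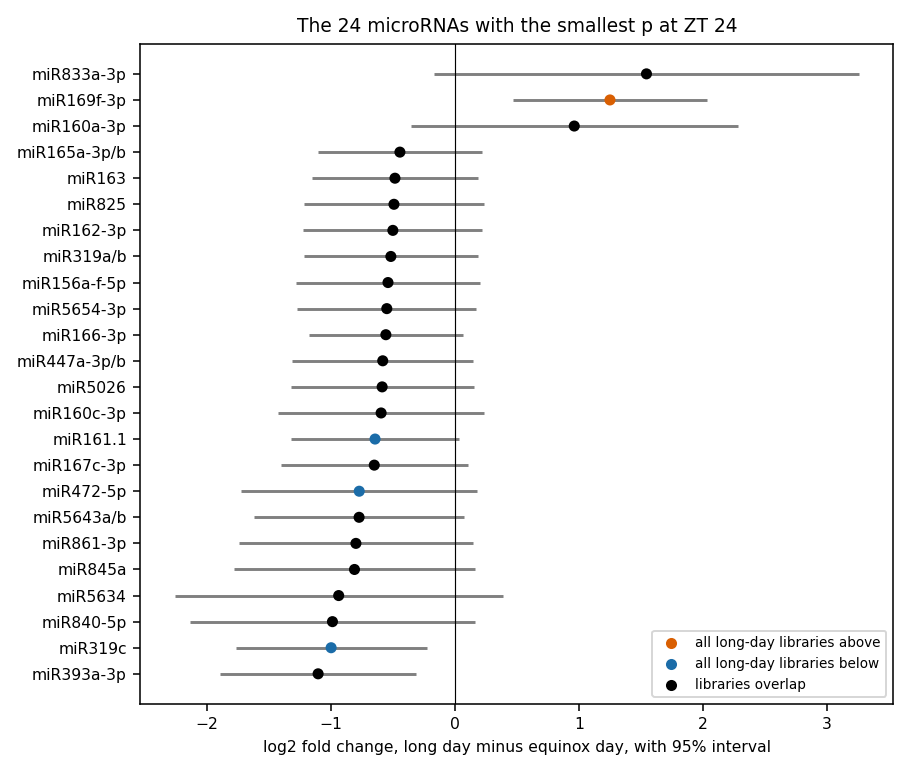
Log2 fold changes (horizontal axis, long day minus equinox day as labelled) of the 24 microRNAs with the smallest p at ZT24, with 95% intervals as lines. Point colour gives whether the libraries of the groups overlap, and 3 of the intervals leave out 0, those of miR169f-3p, miR393a-3p and miR319c.

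No member of the families that time development passed the test. The lists here and below were drawn by family number and hold opposite arms as well as guides. Targets are given for the guides of each family. The miR156 and miR157 families, which repress SPL transcription factors in juvenile plants, had 12 tested members, of which 10 were negative and none passed the test, with a median of -0.28. That median was 0.44 without equinox day A and -0.60 with long day C alone. The main miR156 guide, shared by MIR156a to MIR156f, stood at 3554, 8625 and 3010 CPM in long day A, B and C and at 12650, 4881 and 4546 in equinox day A, B and C. Its highest and lowest libraries differed within each group by more than the group means did, and its log2 fold change was -0.54 ± 0.37 (interval -1.28 to 0.20). It was -1.29 with long day C alone (adjusted p = 0.378). The miR172 family, which represses AP2-like floral repressors, was rare: miR172a/b-3p had 3.37, 3.07 and 7.01 CPM against 7.78, 1.79 and 3.68, and the interval of its log2 fold change ran from -1.59 to 1.64 (0.67 with long day C alone). All 3 tested members were positive, with a median of 0.19 that turned to -0.0418 without long day C and was 0.67 with long day C alone. Against equinox day at ZT20, matched for 8 h of dark, all 3 were negative, with a median of -0.53.

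Families of leaf and meristem patterning had no member past the threshold either. The guides of miR165 and miR166 target class III homeodomain-leucine zipper mRNAs of leaf polarity. All 5 tested members, both arms counted, were negative, with a median of -0.38. The miR166-3p guide held 4873, 7603 and 4573 CPM in long day A, B and C and 8954, 7053 and 9067 in equinox day A, B and C. Long day B lay between the equinox-day libraries, and the log2 fold change was -0.56 ± 0.31 (interval -1.18 to 0.06; adjusted p = 0.714). It was -0.87 with long day C alone. The list median turned to 0.05 without equinox day A and was -0.56 with long day C alone. Among the 6 tested members of miR159 and miR319, which target GAMYB and TCP mRNAs, 5 were negative (median -0.22, but 0.0630 without equinox day A and 0.0465 with long day C alone), and miR159a, at 2817 ± 608 and 3244 ± 1214 CPM, had a log2 fold change of -0.20 ± 0.39, which turned to 0.11 with long day C alone. The 9 tested members of miR164, miR394 and miR396, which act on organ boundaries, the shoot meristem and growth-regulating factors, had 5 positive and 4 negative values and a median of 0.0154 that turned with single libraries. All 9 were positive without equinox day A (median 0.51), 8 were negative without equinox day B (-0.37), and 7 were negative without long day C (-0.17). The median was 0.34 with long day C alone. Of the 6 members of miR170 and miR171, which target HAM genes of the meristem, 5 were negative (median -0.31, but 0.23 without equinox day A and 0.15 with long day C alone).

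Auxin-related families also had no member past the threshold. Their 14 tested members (miR160, miR167, miR390 and miR393, which act on auxin response factors and auxin receptors, directly or through trans-acting siRNAs) had 11 negative values and a median of -0.21, which was 0.34 without equinox day A and 0.01 with long day C alone. The miR167c-3p arm stood at 413 ± 67.6 and 647 ± 162.5 CPM, a log2 fold change of -0.65 ± 0.38 (adjusted p = 0.716), or -0.71 with long day C alone. The guide miR167a-5p/b had equal means of 332 ± 120 and 332 ± 191 CPM (n = 3 each), with an interval of -0.97 to 0.97 on the log2 scale (0.41 with long day C alone). The 10 tested members of families with triggers of secondary siRNAs (miR161, miR173, miR390, miR393 and miR400) include opposite arms such as miR393a-3p, and some are also in the auxin list. Their median was -0.16 with 4 positive and 6 negative. It turned to 0.39 without equinox day A, with 8 positive, was -0.51 without equinox day B, and was -0.10 with long day C alone.

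The families whose guides target the small RNA machinery itself had 7 negative values of 7, both arms counted, beside 69.8% of all microRNAs, and none passed the threshold. These are miR162 (Dicer-like mRNA) and miR168 and miR403 (Argonaute mRNAs), with a median of -0.37. The miR162-3p guide held 9009, 12260 and 8106 CPM in long day and 20316, 8143 and 13090 in equinox day, so that equinox day B was within the long-day range (log2 fold change -0.50 ± 0.36, interval -1.22 to 0.22, and -0.77 with long day C alone). The median was 0.04 without equinox day A and -0.44 with long day C alone.

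No member of the nutrient-related families passed the test. Copper-related miR397, miR398 and miR408, which target copper proteins, had 6 tested members, 3 positive and 3 negative, with a median of -0.00492 that turned with single libraries. All 6 were negative without long day C (median -0.36) and without equinox day B (-0.26), and all 6 were positive with long day C alone (0.68). The miR398b/c-3p guide held 3290, 1897 and 5204 CPM in long day and 2580, 2232 and 4962 in equinox day, and replicate C was the highest and replicate B the lowest in both groups. Its log2 fold change was 0.09 ± 0.48, and 0.68 with long day C alone. The phosphate-related miR399b/c-3p and miR827 had log2 fold changes of -0.29 ± 0.39 and -0.34 ± 0.55, which were -0.66 and -1.23 with long day C alone. Their median of -0.32 was 0.20 without equinox day A and -0.94 with long day C alone. Among long-day libraries miR827 ran from 15.2 to 83.3 CPM. Immune-receptor microRNAs (miR472 and miR825) had 3 negative values and a median of -0.49, which stayed negative in each setting, at -0.14 without equinox day A and -0.62 with long day C alone. The miR858 pair, which targets MYB mRNAs of phenylpropanoid metabolism, had values of 0.37 ± 0.41 (miR858a) and -0.23 ± 0.50 (miR858b), which were 0.92 and 0.76 with long day C alone. Their median of 0.07 was -0.59 without long day C and 0.84 with long day C alone. The light-related miR163, which targets methyltransferase mRNAs, held 127, 164.8 and 155.6 CPM against 294, 167.2 and 164.4, so that only equinox day A stood clear (-0.48 ± 0.33, and -0.42 with long day C alone).

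Families with higher numbers, many of them found in few plant species, had no member past the threshold. Of 40 tested members numbered miR158 or miR771 to miR870, without those already in a list above (miR825, miR827 and miR858), 31 were negative (median -0.31, but 0.37 without equinox day A and -0.43 with long day C alone). The highest value of all microRNAs, 1.55 ± 0.85 for miR833a-3p, rested on 1.26, 4.38 and 1.75 CPM against 1.46, 0.448 and 0.525, near the level of 3 counts, and was 1.07 with long day C alone. The miR840-5p arm, at 1.68, 7.01 and 1.31 CPM against 8.75, 4.93 and 6.30, was at -0.99 ± 0.57, or -2.29 with long day C alone (adjusted p = 0.369), and lies in an exon of AT2G02750. Abundant miR158a-3p held 12023 ± 3592 and 15193 ± 7865 CPM (-0.34 ± 0.31, and -0.61 with long day C alone), with the smallest SE of the 149 microRNAs. The 22 tested members with later numbers, from miR1000 upwards, had a median of -0.0759 with 13 negative. It turned to 0.23 without equinox day A, was -0.46 with 21 negative without equinox day B, and was -0.34 with long day C alone. The most abundant of them, miR5026, stood at 3795, 8263 and 2746 CPM in long day and 12439, 5039 and 4753 in equinox day (-0.59 ± 0.37), and at -1.43 with long day C alone (adjusted p = 0.327).

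**Figure D5:**
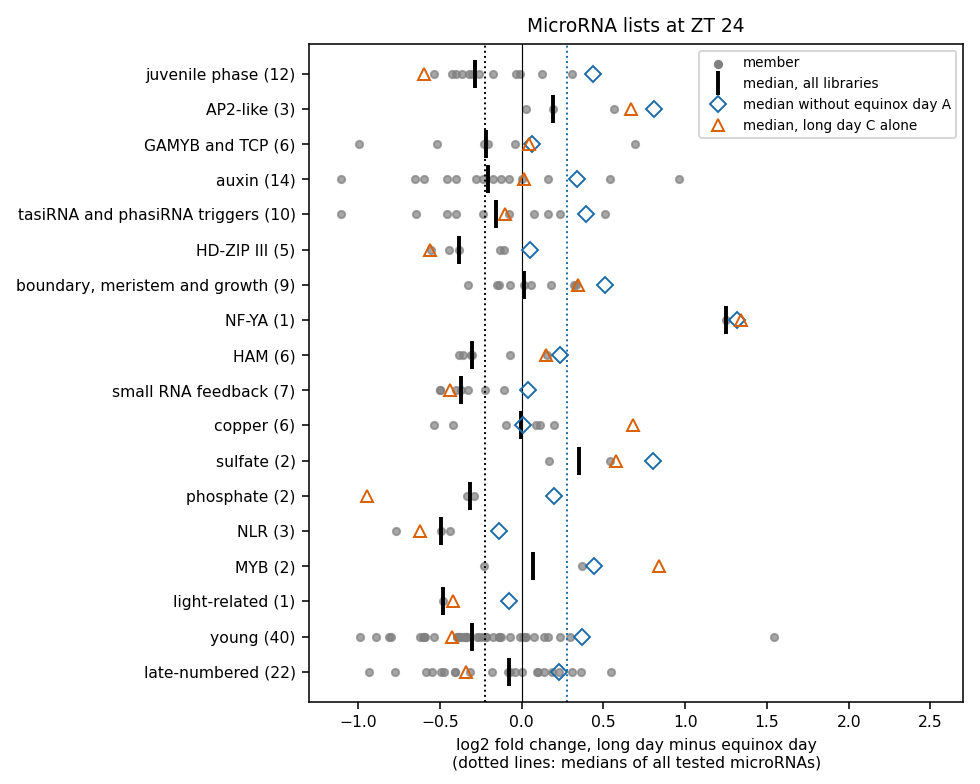
Log2 fold changes (horizontal axis, long day minus equinox day as labelled) of the tested members of each microRNA list (rows, number of members in brackets), with the list median over all libraries, without equinox day A and with long day C alone. In most lists the median lies below 0 with all libraries and above 0 without equinox day A.

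Among the features with a trex name, none passed the test between the labelled groups (smallest adjusted p = 0.320). Of those with a mean of 10 CPM or more over the 6 libraries, the 2 higher and the 2 lower ones with the smallest p are given. Among the higher ones trex170492 stood at 183, 439 and 97.3 CPM in long day A, B and C and at 58.8, 34.5 and 18.9 in equinox day A, B and C, a log2 fold change of 2.68 ± 0.60, or 1.38 with long day C alone (adjusted p = 0.496). The other, trex261932, had 16.0, 13.6 and 120.5 CPM against 7.78, 8.51 and 14.7, so its fitted value of 2.27 came mainly from long day C. The log2 fold change of trex261932 was 3.54 with long day C alone and 0.57 without long day C. The lower ones, trex39670 and trex14322, rested on equinox day B, which held 220 and 44.8 CPM where the other equinox-day libraries held at most 7.88 and 8.75. The fit with long day A and B and without long day C called 0 features.

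Whether the difference at ZT24 departed from that at the other 5 times was tested over all features. No microRNA passed (0 of 149, smallest adjusted p = 0.194), where 5 of 8869 features did (0.0564%), 4 higher (0.0451%) and 1 lower (0.0113%). At an unadjusted p under 0.05 there were 3 microRNAs, beside 15.9% of all features, 10.9% higher and 4.95% lower. DESeq2 also called 0 microRNAs, but gave no adjusted p for 30 of them. The feature trex998 stood at 0 to 2.35 CPM as a mean at the other long-day times and at 8.20 to 38.4 at the other equinox-day times, and at ZT24 at 21.9, 21.9 and 0.438 CPM in long day A, B and C. Long day A and B were thus within the equinox-day range and long day C within the long-day range. The 1 lower feature, trex44146, showed no such split, at 5.05, 3.51 and 7.01 CPM in long day and 16.5, 9.86 and 8.93 in equinox day. With long day C alone, 0 features passed.

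Long day at ZT24 was also set against equinox day at ZT20, both after 8 h of dark, in a comparison that shares the long-day libraries with the one above. Again no microRNA passed (0 of 149, smallest adjusted p = 0.497), where 3 of 8869 features did (0.0338%), all higher in long day. At an unadjusted p under 0.05 there were 3 microRNAs, all lower, beside 5.28% of all features, 3.65% higher and 1.62% lower, by edgeR. DESeq2 called 0 microRNAs, gave no adjusted p for 26, and had 9 of the 149 microRNAs and 508 of the 8869 features at that level. Of the 3 features that passed, 1 was trex170492, at 27.8, 18.1 and 13.8 CPM in equinox day at ZT20 (log2 fold change 3.58 ± 0.63, adjusted p = 0.00572), which with long day C alone did not pass (2.28, adjusted p = 0.170). Another was trex763666, described above for its split between long day A, B and C (log2 fold change 5.40 ± 1.08, adjusted p = 0.0298), whose log2 fold change was 0.23 without long day C and 6.96 with long day C alone. The microRNA median was -0.25, with 115 of 149 negative (77.2%), against 0.00434 and 49.7% over all features. It turned to 0.0877 without replicate A of equinox day at ZT20, was -0.51 without replicate B and -0.53 without long day B, and was -0.0925 without long day A. It was -0.32 with long day C alone. With long day C alone 56 features and 0 microRNAs passed.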

How the data were processed

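Read counts were deposited by the authors as 1 table of whole numbers for 54 libraries. Per the submitters' processing notes, cutadapt 3.4, Bowtie2 2.5.1 and SAMtools were used. No source used here gives their settings, the build, how features were counted or what was done with multiply matching reads. Per the labels, RNA of integrity 7 or more from about 200 mg of tissue was size-selected to at most 40 nucleotides. The row named genome was left out. The quasi-likelihood test of edgeR 4.0.16, run in R 4.3.3 beside limma 3.58.1, used all 54 libraries, each of the 18 groups with its own mean, TMM factors and filterByExpr (minimum count 10, minimum total 15), which kept 8869 of 223651 features and 98.1% of counts. Residual degrees of freedom were 36, and the typical coefficient of variation was 0.456. The 3 contrasts that were tested are named in the text. Standard errors follow from the test statistic, and levels are CPM on TMM-scaled totals. The level of 3 counts, given as a guide to what low values can show, covers counting error only. The scripts were tested on simulated counts.

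The named set held the 24 microRNAs with the smallest p, the 6 most abundant, and up to 2 of the most abundant of each list. For long day against equinox day it also held the 2 trex features per direction with the smallest p among those with a mean of 10 CPM or more. Not all of the named microRNAs are printed in the text. The features of the label check (the 2 with the largest separation in each direction) were picked after their values were seen, of which 1 each is printed. Members, lists and tests were chosen with earlier results of these data known. Alternatives were DESeq2 1.42.0, its size factors, no TMM factors, totals with the genome entry, microRNAs alone, no filter, 1 CPM in 3 libraries, only the groups compared, the replicate block, each library left out, and long day C alone. Mature sequences came from RefSeq TAIR10.1, where all 193 names of the 149 tested features were found.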

Additional observations from a re-analysis of the deposited data

Results flagged for a closer look

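The difference between long day and equinox day departed at ZT24 from that at the other times for 5 features, none of them a microRNA, by an interaction contrast in edgeR. The feature trex484338 departed by 6.28 ± 1.02 on the log2 scale (adjusted p = 0.00285), at 2.43 ± 1.76 and 1.45 ± 0.425 CPM in long day and equinox day at ZT24 (n = 3 each), and trex998 by 4.74 ± 0.82 (adjusted p = 0.00285). The size for trex484338 rests on long-day means of 0 CPM at ZT4, ZT8, ZT12 and ZT16 and 0.30 at ZT20. At ZT24 trex484338 had 9, 7 and 1 counts in long day and 2, 4 and 3 in equinox day, a log2 fold change of 0.73 ± 0.85. The feature trex44146 departed by -2.38 ± 0.51 (adjusted p = 0.0482), at 5.19 ± 1.76 and 11.8 ± 4.14 CPM. With long day C as the only long-day library of ZT24 the 3 values were 3.94, -0.17 and -1.95, and none passed (adjusted p = 0.285, 0.934 and 0.267). Long day A and B, which on 106 of 110 features of the label check stood with equinox day, held 3.79 and 3.07 CPM of trex484338, and long day C 0.438. What sets this was not tested. No outlier test was applied to single values within groups of 3 libraries.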

How the results depend on the processing

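No alternative called a microRNA in any of the 3 contrasts, except that with microRNAs fitted alone 1 passed between long day and equinox day and 1 in the departure from the other times, both times miR169f-3p. DESeq2 left 0, 30 and 26 microRNAs without an adjusted p in the 3 contrasts. Feature counts moved more. Between long day and equinox day 0 passed, but 19 with no filter, 6 with no TMM factors, 41 with long day C alone, and 0 to 5 with 1 library left out (5 without long day B, 1 without equinox day A or C). The departure from other times had 5, but 125 in DESeq2, 37 with no filter, 31 with no TMM factors, 413 with only the groups compared, 0 with long day C alone, and 1 to 57 with 1 library left out (57 without long day C, 1 without equinox day B, 3 without equinox day C, 2 without any of the others). Against equinox day at ZT20 3 passed, but 17 in DESeq2, 11 with no filter, 1 with only the groups compared, 56 with long day C alone, and 0 to 12 with 1 library left out (12 without long day A, 1 without long day C, 0 without any 1 equinox-day library of ZT20). The cause was not tested. Deviations from the group means correlated at -0.0916, 0.0787 and 0.250 between long-day and equinox-day libraries with the same letter. Between those with other letters the correlations ran from -0.248 to 0.170. With 3 libraries a group these values cannot show whether the letters pair libraries, and the main fit used no pairing. With the replicate block 0, 3 and 3 features and 0 microRNAs passed in the 3 contrasts. The difference in microRNA share ran from -1.91 to 0.14 percentage points with 1 library left out and was -0.33 as a share of all counts, and that of the genome entry ran from -0.62 to 3.29. Of 748 log2 fold changes of the 47 named microRNAs under 16 alternatives, 674 kept their direction, and 26 of the microRNAs did so throughout. The others were reversed as follows, none past the threshold. With microRNAs fitted alone it was 0.00983 for miR158a-3p, 0.14 for miR159a, 0.093 for miR159b-3p, 0.38 for miR167a-5p/b, 0.0163 for miR171b/c-3p, 0.0811 for miR396b-5p, 0.25 for miR408-3p and 0.13 for miR858b. With no TMM factors it was 0.00116 for miR158a-3p, 0.16 for miR159a, 0.13 for miR159b-3p, 0.37 for miR167a-5p/b, 0.0296 for miR171b/c-3p, 0.0317 for miR396b-5p, 0.28 for miR408-3p and 0.17 for miR858b. With totals that include the genome entry it was 0.00612 for miR159a, 0.19 for miR167a-5p/b, 0.14 for miR408-3p and 0.0032 for miR858b. In DESeq2 it was -0.13 for miR172a/b-3p, -0.14 for miR396a-5p and -0.0452 for miR398b/c-3p. With DESeq2 size factors it was -0.13 for miR172a/b-3p, -0.14 for miR396a-5p and -0.0452 for miR398b/c-3p. With the filter of 1 CPM in 3 libraries it was -0.0502 for miR172a/b-3p and -0.0662 for miR396a-5p. With only the groups compared it was -0.00303 for miR395a/d/e, -0.15 for miR396a-5p and -0.0275 for miR398b/c-3p. With no filter it was 0.10 for miR167a-5p/b and 0.0499 for miR408-3p. With the replicate block it was 0.0603 for miR167a-5p/b. With long day C alone it was 0.11 for miR159a, 0.0558 for miR159b-3p, 0.41 for miR167a-5p/b, 0.29 for miR408-3p and 0.76 for miR858b. With 1 library left out the log2 fold change ran from -1.20 to 0.19 for miR156a-f-5p, -0.90 to 0.37 for miR157a/b-3p, -0.64 to 0.24 for miR158a-3p, -0.51 to 0.12 for miR159a, -0.51 to 0.00443 for miR159b-3p, -0.97 to 0.0534 for miR160c-3p, -0.35 to 0.63 for miR167a-5p/b, -0.58 to 0.15 for miR171b/c-3p, -0.43 to 0.78 for miR172a/b-3p, -0.79 to 0.0916 for miR390a-3p, -0.13 to 0.79 for miR395a/d/e, -0.37 to 0.79 for miR396a-5p, -0.68 to 0.32 for miR396b-5p, -0.28 to 0.49 for miR398b/c-3p, -0.80 to 0.14 for miR399b/c-3p, -0.69 to 0.0374 for miR403-3p, -0.37 to 0.16 for miR408-3p, -0.75 to 0.0188 for miR472-3p, -1.21 to 0.096 for miR5026, -1.50 to 0.25 for miR827 and -1.19 to 0.17 for miR858b.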
